A study of Mus musculus with 4 samples.

Results

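The smooth muscle contractile genes Acta2, Tagln, Myh11, Cnn1, Lmod1, Myl9, Cald1, Smtn, Actg2 and Tpm1 were taken as a named list, 10 of the 32285 genes counted. The list was chosen with earlier results of these data known. They were followed cell by cell in mesenchymal progenitor cells (MPC) of the mouse line C3H10T1/2. The cells carried a lentiviral transgene for tagged wild-type histone H3 (H3WT) or for its arginine-to-cysteine form (H3R26C), were grown under puromycin selection and kept their own histone H3 genes. Each line was given 5-Azacitidine (5-Aza), a DNA methyltransferase inhibitor, at 3 µM for 24 h, or the vehicle DMSO. The 5-Aza cells were collected on day 28. For the DMSO cells no day of collection is given, and time in culture cannot be told apart from treatment if it differed. Each of the 4 conditions was 1 droplet library on the 10X Genomics platform, so a condition cannot be told apart from its library. Values below are counts of unique molecular identifiers (UMIs), each of which marks 1 captured RNA molecule.

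Cells with at least 5000 UMIs, at least 1500 genes and at most 20% mitochondrial UMIs were kept, 22049 of 39891 barcodes. Skeletal muscle-like cells, in which 32 sarcomeric genes held at least 1% of the UMIs, were set apart. There were 171 of them in H3WT 5-Aza and 232 in H3R26C 5-Aza, and 0 in both DMSO libraries, where 3 counts would be a share of 0.0809% in H3WT and 0.0635% in H3R26C. This left 3710 cells in H3WT DMSO, 5822 in H3WT 5-Aza, 4727 in H3R26C DMSO and 7387 in H3R26C 5-Aza, with 81698878 to 106028611 UMIs per library and a median of 13057 to 22420 UMIs per cell. The median was higher with DMSO than with 5-Aza in both lines. Between 24 and 58 kept barcodes were shared by any pair of libraries, at most 1.11% of the smaller one, and no doublets were removed. The cycling share of kept cells was 4.2% in H3WT DMSO, 6.82% in H3WT 5-Aza, 8.65% in H3R26C DMSO and 16.8% in H3R26C 5-Aza. Of 5 endothelial and 5 blood markers, none reached a mean of 5 CPM, the unit used throughout, in which the UMIs of a gene are scaled to a common library total. The endothelial ones summed to 0.311 CPM in H3WT DMSO, 3.07 in H3WT 5-Aza, 0.428 in H3R26C DMSO and 9.65 in H3R26C 5-Aza. Of the last, Cdh5 was at 5.54 CPM. The blood markers summed to 0.0460, 0.747, 0.0357 and 1.95 CPM in the same order.

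In smooth muscle, actin thin filaments slide along myosin filaments after the myosin light chain is phosphorylated, and calponin, caldesmon and tropomyosin on the thin filament tune this contraction. Many of the genes are switched on by serum response factor (SRF), which binds the CArG box together with its partner myocardin or the myocardin-related factors, and TGF-beta raises several of them. Some members are not particular to smooth muscle: Acta2 and Tagln are also known from myofibroblasts, and Tpm1 and Cald1 are made in many cell types.

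Promoter stretches show which of these control sequences stand near the start sites. RefSeq gave windows for 7 of the 10 members on GRCm38.p6, from 250 bases before to 50 bases after each start, and the letters of 3 motifs were searched on both strands. The CArG box proper was found in 1 of the 7 members, against 1.81% of all 27025 genes with a window. A CArG-like form, in which 1 of the 6 middle bases is G or C and which was added after the windows had been read, was in 2 members, against 9.69% of genes. MCAT, CATTCC or GGAATG, a motif of the TEAD factors, was in 5 members, against 16.6% of genes. The stretches of 30 bases around the matches are printed 5′ to 3′ on the strand of the gene with the motif in capitals, to show the letters that were matched.
Myl9 CArG box, chr2:156775293-156775322, plus strand: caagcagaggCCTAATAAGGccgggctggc
Myl9 CArG-like, chr2:156775355-156775384, plus strand: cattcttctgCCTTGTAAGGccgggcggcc
Acta2 CArG-like, chr19:34255438-34255467, minus strand: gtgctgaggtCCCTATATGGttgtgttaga
Acta2 CArG-like, chr19:34255388-34255417, minus strand: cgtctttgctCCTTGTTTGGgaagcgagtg
Acta2 MCAT, chr19:34255502-34255531, minus strand: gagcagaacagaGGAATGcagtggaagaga
Tpm1 MCAT, chr9:67049252-67049281, minus strand: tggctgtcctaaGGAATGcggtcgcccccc
Lmod1 MCAT, chr1:135324671-135324700, plus strand: ccaagattccctGGAATGtcctcaagtttc
Cald1 MCAT, chr6:34598339-34598368, plus strand: gagcatgcctagGGAATGacaggcatctgc
Smtn MCAT, chr11:3539497-3539526, minus strand: cggtttgtggcaCATTCCggactttggctt
The Cnn1 window held none of the 3 motifs. No window was given for Tagln, Myh11 and Actg2. A match of letters is a description of the window and not a bound site.

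The level of a gene is its UMI count over all cells of a library outside the skeletal muscle-like ones, in CPM. There are no replicates, so no test between conditions was made, and the 95% intervals, exact for counts, cover counting error only. The members together came to 1957 CPM in H3WT DMSO, 2337 in H3WT 5-Aza, 2122 in H3R26C DMSO and 1901 in H3R26C 5-Aza. The sum was thus highest in H3WT 5-Aza and lowest in H3R26C 5-Aza, and the intervals of the 4 sums did not overlap. With the skeletal muscle-like cells kept, the log2 ratio of the sum for 5-Aza against DMSO in H3R26C was 0.0041 in place of −0.16. Acta2, Cald1 and Tpm1 held 95.3% to 97.1% of this sum, so that the sum follows these genes. The other 7 members summed to 58.4 CPM in H3WT DMSO, 96.0 in H3WT 5-Aza, 61.2 in H3R26C DMSO and 89.5 in H3R26C 5-Aza, higher with 5-Aza in both lines. Smtn, the largest of the 7, was at 39.7, 40.0, 33.9 and 49.3 CPM in that order, and Tagln at 2.15, 23.2, 6.03 and 12.3 CPM. Smtn was thus part of the higher sum in H3R26C and hardly in H3WT.

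**Figure D1:**
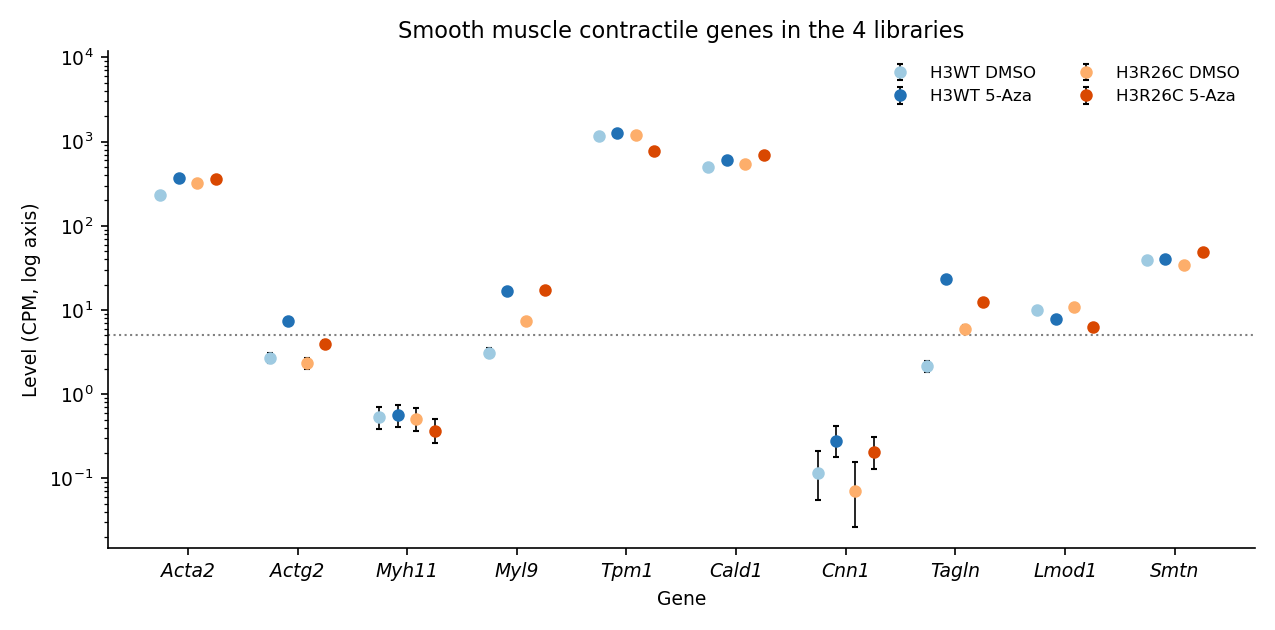
The level of each of the 10 members in CPM on a log axis is plotted for the 4 libraries, with 95% exact Poisson intervals as bars and a dotted line at 5 CPM. Tagln runs from 2.15 to 23.2 CPM and Myl9 from 3.12 to 17.1 CPM, Tpm1 is set apart in H3R26C 5-Aza at 767 CPM, and Myh11 and Cnn1 stay under 1 CPM.

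Acta2 (ENSMUSG00000035783, chr19:34241090-34255590) encodes smooth muscle alpha-actin. It was at 234 CPM in H3WT DMSO, 370 in H3WT 5-Aza, 322 in H3R26C DMSO and 356 in H3R26C 5-Aza. H3WT DMSO was thus the lowest library, and the other 3 lay close together. With 5-Aza the level was 1.58-fold that of DMSO in H3WT (1.55 to 1.61) and 1.10-fold in H3R26C (1.09 to 1.12). With the skeletal muscle-like cells kept, its log2 ratios were 1.02 and 0.59, both past 1.5-fold. Actg2, the gamma-actin of visceral smooth muscle, was at 2.71, 7.44, 2.32 and 3.99 CPM in the same order, and its mean lay under 5 CPM, the minimum for a gene to be counted in the comparisons. Its level was higher with 5-Aza in both lines, 2.75-fold in H3WT (2.36 to 3.21) and 1.72-fold in H3R26C (1.45 to 2.05). Acta2, Actg2 and the skeletal and cardiac actins Acta1 and Actc1 are close paralogs, and how reads that fit several of them were assigned was not tested.

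Myh11 (chr16:14194535-14291372), the myosin heavy chain by which mature smooth muscle is recognised, was close to the limit of detection. It had 46 UMIs in H3WT DMSO, 46 in H3WT 5-Aza, 43 in H3R26C DMSO and 39 in H3R26C 5-Aza, or 0.368 to 0.563 CPM, and the intervals overlapped. No difference in Myh11 was detectable at this depth. Myl9 (ENSMUSG00000067818, chr2:156775420-156781658), the regulatory myosin light chain, was by contrast at 3.12 CPM in H3WT DMSO, 16.6 in H3WT 5-Aza, 7.40 in H3R26C DMSO and 17.1 in H3R26C 5-Aza. Both 5-Aza libraries stood above both DMSO libraries and lay within counting error of each other. The 5-Aza level was 5.32-fold that of DMSO in H3WT (4.67 to 6.09) and 2.31-fold in H3R26C (2.11 to 2.54), and with DMSO the level in H3R26C was 2.37-fold that in H3WT (2.05 to 2.75).

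Tpm1 (ENSMUSG00000032366, chr9:67022590-67049406) encodes a tropomyosin that lies along the actin filament. Its level was 1161 CPM in H3WT DMSO, 1269 in H3WT 5-Aza, 1203 in H3R26C DMSO and 767 in H3R26C 5-Aza. Here H3R26C 5-Aza was the lowest library, at 0.638-fold the level of H3R26C DMSO (0.632 to 0.644) and 0.605-fold that of H3WT 5-Aza (0.599 to 0.610). With the skeletal muscle-like cells kept, its log2 ratio for 5-Aza in H3R26C was −0.46, within 1.5-fold. Cald1 (ENSMUSG00000029761, chr6:34598500-34775473) encodes caldesmon, whose muscle and non-muscle forms come from the same gene and were not told apart by these counts. It was at 503, 602, 536 and 689 CPM in the same order, higher with 5-Aza in both lines by less than 1.5-fold. In H3R26C 5-Aza, Cald1 and Tpm1 thus lay on opposite sides of their DMSO levels.

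Tagln (ENSMUSG00000032085, chr9:45929619-45936058), the actin-binding protein SM22-alpha, had the widest range of the members. It was at 2.15 CPM in H3WT DMSO, 23.2 in H3WT 5-Aza, 6.03 in H3R26C DMSO and 12.3 in H3R26C 5-Aza, and no intervals overlapped. With 5-Aza the level was 10.8-fold that of DMSO in H3WT (9.28 to 12.6) and 2.04-fold in H3R26C (1.84 to 2.27). H3R26C was higher than H3WT with DMSO, 2.80-fold (2.36 to 3.33), and lower with 5-Aza, 0.530-fold (0.494 to 0.569). Cnn1 (chr9:22099216-22109630), calponin of smooth muscle, had 10, 23, 6 and 22 UMIs in the order H3WT DMSO, H3WT 5-Aza, H3R26C DMSO and H3R26C 5-Aza. These are at most 0.282 CPM. The counts were higher with 5-Aza in both lines, but the intervals of the treatments overlapped within each line, so no order by treatment is read.

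Lmod1 (ENSMUSG00000048096, chr1:135324807-135368065), leiomodin, starts actin filaments. Its level was 9.98 CPM in H3WT DMSO, 7.87 in H3WT 5-Aza, 11.004 in H3R26C DMSO and 6.22 in H3R26C 5-Aza, lower with 5-Aza in both lines. The 5-Aza level was 0.789-fold that of DMSO in H3WT (0.711 to 0.874) and 0.566-fold in H3R26C (0.511 to 0.626). Smtn (ENSMUSG00000020439, chr11:3517523-3540612), smoothelin, a cytoskeletal protein of contractile smooth muscle, was at 39.7, 40.0, 33.9 and 49.3 CPM in the same order. It did not differ by treatment in H3WT beyond counting error (1.01-fold, 0.959 to 1.06) and was 1.45-fold higher with 5-Aza in H3R26C (1.39 to 1.52). Tagln, Cald1, Smtn and Lmod1 overlap other genes on the opposite strand in the annotation, and whether reads were counted by strand is not given in the sources used here.

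A log2 ratio with a pseudocount of 1 CPM was then set against all genes, and a gene was counted as higher or lower where this ratio passed 1.5-fold. Among the 7 members with a mean of at least 5 CPM, 3 were higher with 5-Aza in H3WT and 0 were lower, where 5.77% of all 10124 genes were higher and 1.62% lower. Those 3 were Tagln (log2 ratio 2.94), Myl9 (2.10) and Acta2 (0.66), and the median of the 7 was 0.26 beside 0.035 over all genes. With H3R26C, 2 members were higher and 2 lower with 5-Aza, where 8.91% of genes were higher and 10.1% lower. Myl9 (1.11) and Tagln (0.92) were the higher ones, Lmod1 (−0.73) and Tpm1 (−0.65) the lower ones, and the median was 0.36 beside −0.051 over all genes. The set of members that passed is small and includes those that passed through the libraries where they are high.

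Between the lines, 2 members were higher in H3R26C than in H3WT with DMSO and 0 lower, where 4.91% of genes were higher and 1.67% lower. These were Tagln (1.16) and Myl9 (1.03), and the median of the 7 was 0.13 beside 0.041 over all genes. With 5-Aza, 0 members were higher in H3R26C and 2 were lower, where 7.36% of genes were higher and 8.31% lower. Tagln (−0.86) and Tpm1 (−0.73) were the lower ones, and the median was −0.056 beside −0.037. The 4 comparisons share libraries in pairs, and the H3WT DMSO library, in which Tagln, Myl9 and Acta2 were lowest, enters both the H3WT comparison of treatments and the DMSO comparison of lines.

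**Figure D2:**
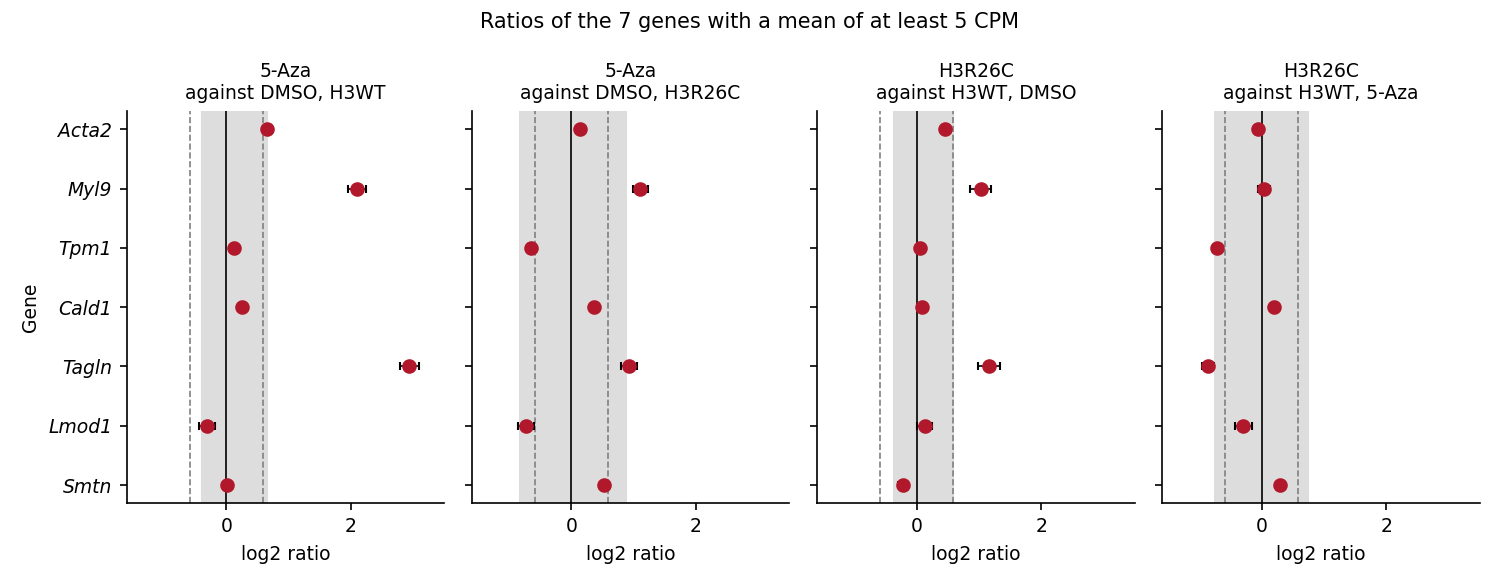
The log2 ratio of the 7 members with a mean of at least 5 CPM is plotted for each of the 4 comparisons, with 95% counting intervals as bars, the range from the 5th to the 95th percentile of all 10124 genes in grey and the 1.5-fold ratio as dashed lines. Tagln and Myl9 lie to the right of the grey range in 3 panels, and Tagln lies to its left in H3R26C against H3WT with 5-Aza.

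The log2 ratio of 5-Aza to DMSO in H3R26C minus that in H3WT was −2.02 for Tagln, −0.99 for Myl9, −0.52 for Acta2, −0.78 for Tpm1, −0.42 for Lmod1, 0.52 for Smtn and 0.10 for Cald1. Tagln, Myl9 and Acta2 were higher with 5-Aza in both lines and less so in H3R26C, and Lmod1 was lower in both and more so in H3R26C. For Acta2 in H3R26C this did not hold among cells with under 0.05% sarcomeric RNA, where the log2 ratio was −0.035. Tpm1 and the sum of the members went opposite ways, 0.13 in H3WT and −0.65 in H3R26C for Tpm1, and 0.26 and −0.16 for the sum. These differences exceed counting error, and with 1 library per condition the difference between the lines was not tested.

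Depth per cell moved with Acta2. Cells with at least 20000 UMIs made up 64.8% and 12.3% of the H3WT cells with DMSO and 5-Aza and 26.6% and 15.9% of the H3R26C cells. In them Acta2 was at 264, 580, 439 and 391 CPM in that order, above the 138, 325, 252 and 359 CPM of cells with 10000 to 20000 UMIs. Within the latter cells, an alternative chosen after seeing the data, the log2 ratio of Acta2 for 5-Aza in H3WT was 1.23 in place of 0.66, and that for H3R26C against H3WT with DMSO was 0.87 in place of 0.46, past the 1.5-fold ratio. For 5-Aza in H3R26C it was 0.51 in place of 0.14, and Smtn was 0.64, past the 1.5-fold ratio. Tagln in H3R26C against H3WT with 5-Aza was −0.50 there, within the 1.5-fold ratio. The part of depth in the results over all cells was not tested.

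The members differed in how they were spread over cells. To compare shares of cells, each cell was thinned to 5000 UMIs. Tpm1 had a UMI in 95.3% of cells in H3WT DMSO, 95.3% in H3WT 5-Aza, 96.2% in H3R26C DMSO and 87.8% in H3R26C 5-Aza, and Cald1 in 87.8% to 93.0%. Acta2 had a UMI in 34.0%, 43.2%, 36.1% and 45.3% of cells in the same order, against 59.8%, 62.0%, 54.7% and 64.3% before thinning. In adipocyte-like cells, which are not known for Acta2, the thinned share was 5.56% of 18 cells, 31.8% of 88, 7.69% of 26 and 24.6% of 57, at median depths of 20229.5, 14721, 19121.5 and 13090 UMIs. The share was thus higher with 5-Aza among the few adipocyte-like cells too, and the part of free RNA in it was not tested.

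Tagln and Myl9 were found in few cells. After thinning, Tagln had a UMI in 0.809% of cells in H3WT DMSO, 4.90% in H3WT 5-Aza, 1.67% in H3R26C DMSO and 2.71% in H3R26C 5-Aza, and before thinning in 2.21%, 8.64%, 4.36% and 5.52%. In adipocyte-like cells the thinned share was 0%, 2.27%, 3.85% and 3.51%, on at most 2 cells in a library, and in both H3R26C libraries it was no lower than over all cells. The 1% of cells with the most Tagln held 76.5%, 51.6%, 60.9% and 64.8% of all Tagln UMIs in the same order. For Acta2 the top 1% of cells held 19.6% to 23.4% of its UMIs, and for Cald1 and Tpm1 3.62% to 7.54%. Myl9 had a UMI in 1.16%, 6.68%, 3.11% and 6.67% of thinned cells, and in 0%, 3.41%, 3.85% and 7.02% of the adipocyte-like ones, on few cells. In H3R26C the adipocyte-like shares rest on too few cells to order them against the shares over all cells. By level, on at most 10 UMIs, adipocyte-like Tagln was 1.95 CPM with DMSO and 8.45 with 5-Aza, against 6.03 and 12.3 over all cells. Myl9 was 5.85 and 12.1 CPM, against 7.40 and 17.1. Adipocyte-like cells are not known for these genes, and the shares are not read as shares of expressing cells. Lmod1 (3.30% to 5.29%), Actg2 (0.783% to 2.61%) and Myh11 (0.216% to 0.309%) were found in few cells of every library, and Cnn1 in 1 to 8 cells.

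A cell held few members at a time. The median number of members with a UMI after thinning was 2 in both DMSO libraries and 3 in both 5-Aza libraries. At least 5 of the 10 were found in 1.02% of cells in H3WT DMSO, 3.25% in H3WT 5-Aza, 1.21% in H3R26C DMSO and 2.71% in H3R26C 5-Aza, and the most in any cell was 7. The members together took a median of 0.16% of the UMIs of a cell in H3WT DMSO, 0.18% in H3WT 5-Aza, 0.18% in H3R26C DMSO and 0.16% in H3R26C 5-Aza. These medians are 1 UMI of 5000 apart, and the upper ends of the distributions lay farther apart. Above 0.34%, the 90th percentile of H3WT DMSO, lay 9.30% of its own cells (8.38 to 10.3), 16.5% in H3WT 5-Aza (15.6 to 17.5), 12.0% in H3R26C DMSO (11.1 to 12.9) and 10.7% in H3R26C 5-Aza (10.0 to 11.4).

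**Figure D3:**
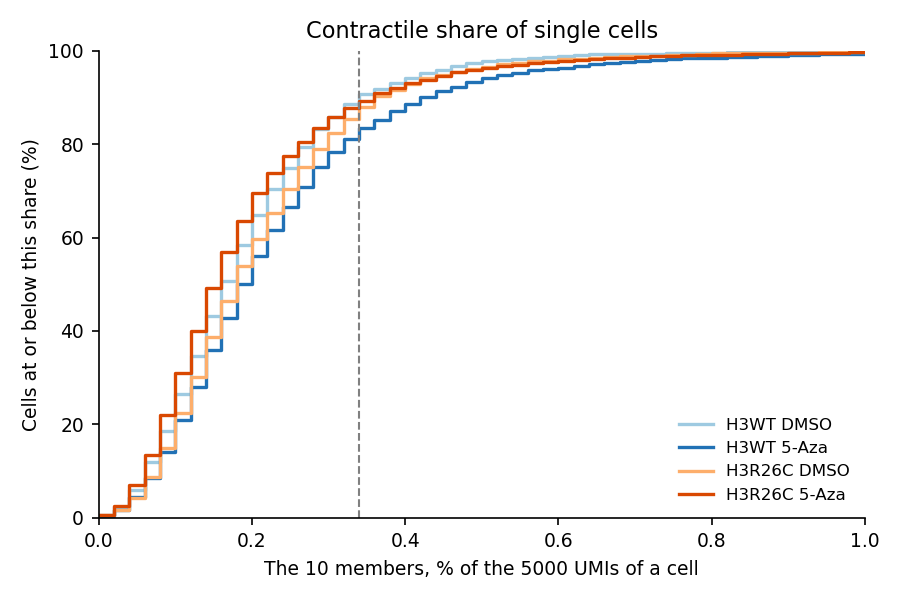
The share of cells at or below each contractile share is plotted for the 4 libraries, the contractile share being the 10 members as a percentage of the 5000 thinned UMIs of a cell, with a dashed line at 0.34%. At the dashed line the H3WT 5-Aza curve lies below the other 3, with 16.5% of its cells above 0.34% against 9.30% to 12.0%.

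That cutoff cuts a continuous range, with 371 to 697 cells per library within 2 UMIs of it, and is not a cell type. Above it, cycling cells were fewer than below it in all 4 libraries, 2.90% against 4.34% in H3WT DMSO and 9.10% against 18.4% in H3R26C 5-Aza at the extremes. Myh11, which hardly adds to the sum, was at 0.458, 0.739, 0.0980 and 0.709 CPM in the cells above the cutoff in the order H3WT DMSO, H3WT 5-Aza, H3R26C DMSO and H3R26C 5-Aza. Myh11 had only 39 to 46 UMIs per library over cells on both sides of the cutoff, so these values rest on few UMIs. They stayed under 1 CPM in the cells above the cutoff, which is set on a sum held mainly by Acta2, Cald1 and Tpm1.

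Co-expression was described by Pearson's r over the cells of a library on log counts after thinning. Acta2 and Tpm1 had r of 0.192 in H3WT DMSO, 0.267 in H3WT 5-Aza, 0.1001 in H3R26C DMSO and 0.245 in H3R26C 5-Aza. Acta2 and Tagln had r of 0.091, 0.250, 0.181 and 0.203, and Acta2 and Myl9 had r of 0.076, 0.220, 0.084 and 0.210 in that order. Myl9 and Tpm1 gave 0.074, 0.193, 0.106 and 0.236. For these 4 pairs each r was higher in the 5-Aza library than in the DMSO library of the same line. For Cald1, found in most cells, it was the reverse, with r of 0.108, 0.075, 0.133 and 0.099 with Acta2 and of 0.095, 0.057, 0.0997 and 0.026 with Tpm1, and Smtn had r of at most 0.051 in size with any other member. Pairs with Myh11 or Cnn1 were at most 0.046 in size, on few UMIs. Among the 5-Aza cells, levels were set beside sarcomeric RNA, from above 0 and under 0.05% to 0.5% to under 1%. In H3WT 5-Aza, Acta2 went from 308 to 1755 CPM, Tpm1 from 1169 to 2006, Myl9 from 14.4 to 29.2 and Tagln from 22.2 to 28.1. In H3R26C 5-Aza they went from 315 to 1247, 732 to 947, 15.9 to 22.8 and, for Tagln, down from 12.9 to 10.7 CPM. The part of this in the values of r was not tested. Acta2, Tagln and Myl9 were also found in more thinned cells with 5-Aza than with DMSO in both lines. Tagln was in 4.90% against 0.809% in H3WT and 2.71% against 1.67% in H3R26C. On the thinned counts, Acta2 in cells with Tagln over cells without it was 4.06-fold with 5-Aza in H3WT (3.85 to 4.28). With DMSO it was 3.51-fold (2.88 to 4.25), and these intervals overlap, so no order is read in H3WT. In H3R26C it was 4.04-fold with 5-Aza (3.81 to 4.28) and 5.80-fold with DMSO (5.32 to 6.30), the reverse order of r. The part of detection in r was not tested.

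**Figure D4:**
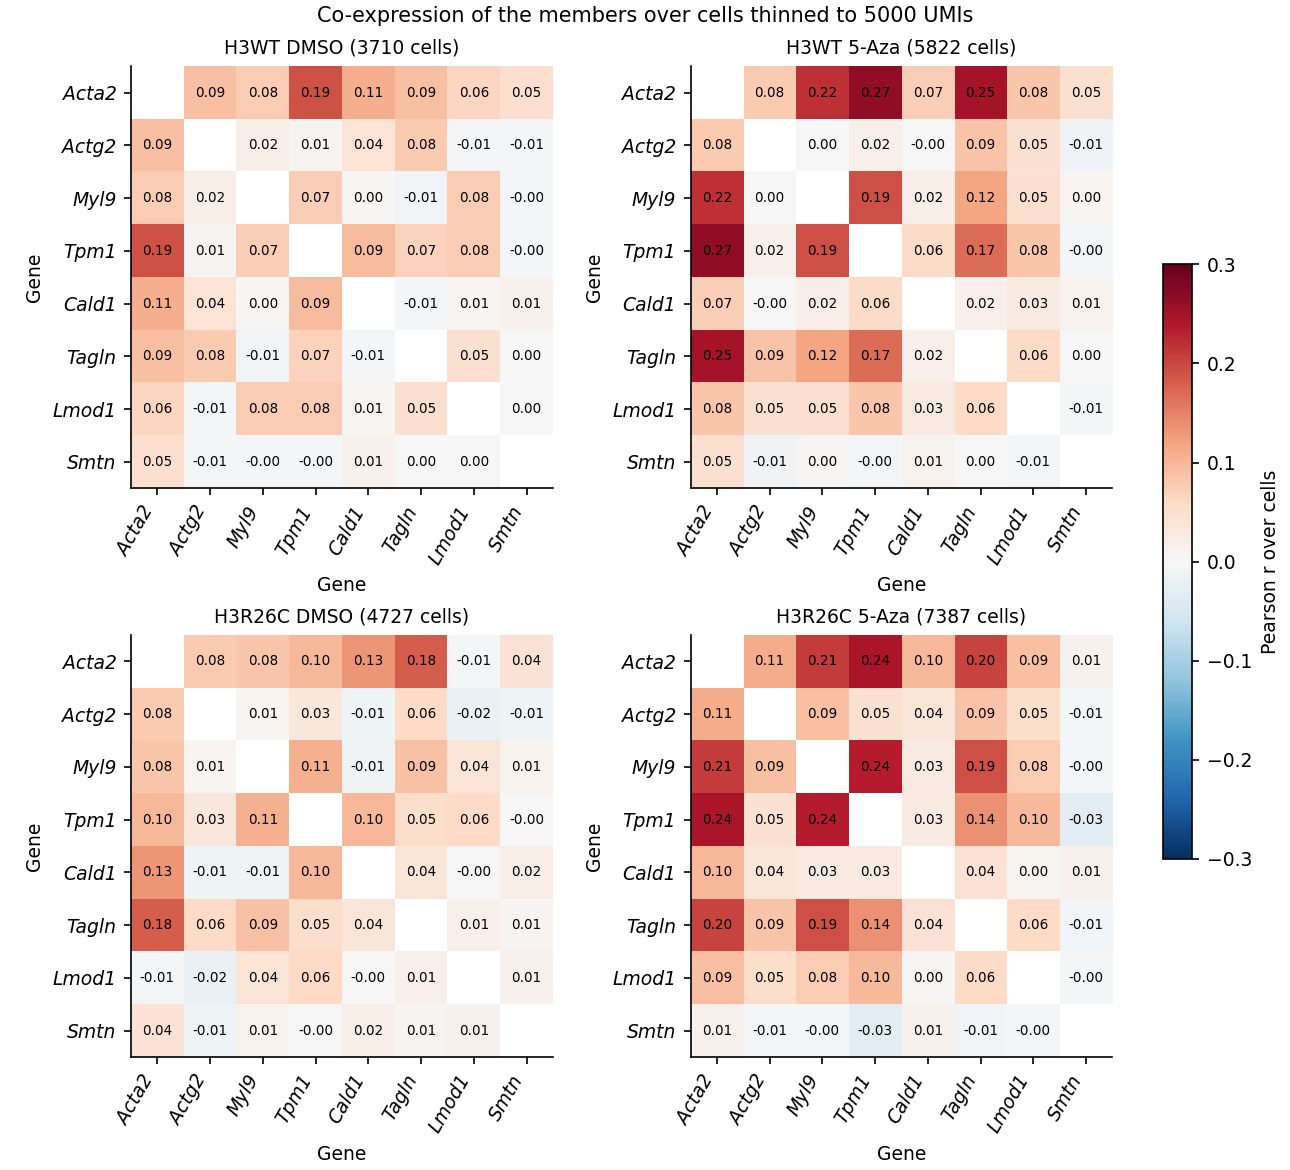
Pearson's r over cells is given as colour and number for each pair of 8 members in each of the 4 libraries, after each cell was thinned to 5000 UMIs, and the diagonal is blank. The strongest colours join Acta2, Tpm1, Tagln and Myl9 in the 5-Aza libraries, up to 0.267 for Acta2 and Tpm1 in H3WT 5-Aza, and the Smtn row is near 0.

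These values are small, and the cells of a library share its depth and its free RNA. As a background, every gene with at least 50 CPM in a library, 3210 to 3295 genes, was correlated with the summed members. The middle 90% of those genes ran from −0.074 at the lowest 5th percentile to 0.095 at the highest 95th percentile over the libraries. Acta2 had r of 0.230, 0.293, 0.159 and 0.260 with the sum of the other 9 members in the order H3WT DMSO, H3WT 5-Aza, H3R26C DMSO and H3R26C 5-Aza, at or above the 99.1th percentile of those genes. Tpm1 had r of 0.147 to 0.229, Tagln of 0.079 to 0.217 and Myl9 of 0.081 to 0.255, and Smtn lay at the 43.0th to 75.5th percentile. Tagln, Myl9 and Smtn were themselves under 50 CPM in every library, so they were set against genes of higher level. The part of level in their r was not tested. The contractile share had a Spearman correlation with the total UMIs of a cell of 0.169 in H3WT DMSO, −0.005 in H3WT 5-Aza, 0.063 in H3R26C DMSO and 0.017 in H3R26C 5-Aza.

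Cells with a Tagln UMI after thinning were looked at on their own. There were 30 and 285 of them in H3WT with DMSO and 5-Aza, and 79 and 200 in H3R26C. Levels in this paragraph are from the thinned counts. In these cells Acta2 was at 733, 1189, 1534 and 1268 CPM in that order. In the cells without one it was at 209, 293, 265 and 314 CPM, so that Acta2 was 3.51, 4.06, 5.80 and 4.04 times as high. Tpm1 was 1.34 to 2.04 times as high in the cells with Tagln, and Cald1 0.881 to 1.25 times. Myl9 was 4.001 times as high in H3WT 5-Aza (3.15 to 5.03), 6.11 in H3R26C DMSO (3.59 to 9.82) and 5.82 in H3R26C 5-Aza (4.63 to 7.23). In H3WT DMSO it had 0 UMIs in the 30 cells, which allows up to 24.6 CPM by the exact interval. Median depths of the cells with Tagln were 23355.5, 14283, 18509 and 14537 UMIs, above the 22410, 13108, 16566 and 13011 UMIs of the cells without it.

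The members were also compared between cell states. In skeletal muscle-like cells Acta2 was at 3788 CPM in H3WT 5-Aza and 3459 in H3R26C 5-Aza, and Tpm1 at 5668 and 3318 CPM, several times the levels of the other cells. Both genes are known to be switched on in young skeletal muscle fibres. Cald1 was lower in these cells, at 307 and 314 CPM. Myl9 was at 31.7 and 50.6 CPM, Tagln at 20.03 and 32.0 CPM, and Myh11 had 0 and 1 UMIs. Of Tpm1, the lower level in H3R26C 5-Aza than in H3WT 5-Aza was therefore present in skeletal muscle-like cells as well as outside them.

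The 32 sarcomeric genes summed to 665 CPM outside those cells in H3WT 5-Aza and 633 CPM in H3R26C 5-Aza, against at most 37.5 CPM with DMSO. Muscle RNA outside those cells was measured by Acta1, the skeletal actin, which lay at 105 CPM in the other cells of H3WT 5-Aza and 115 CPM in those of H3R26C 5-Aza, 0.767% and 0.867% of its muscle-like level. At the same percentages, muscle RNA would give 29.04 and 29.99 CPM of Acta2 and 43.5 and 28.8 CPM of Tpm1. Among cells with a sarcomeric UMI, Acta2 also rose with sarcomeric RNA below the 1% limit. In the 47 cells of H3WT 5-Aza with no sarcomeric UMI, Acta2 was at 452 CPM, above the 308 CPM of cells above 0 and under 0.05%. In the 71 such cells of H3R26C 5-Aza, Acta2 was at 306 CPM, beside 315 CPM. In cells at 0.5% to under 1% it was 1755 CPM in 63 cells of H3WT 5-Aza and 1247 CPM in 88 cells of H3R26C 5-Aza, and in cells at 1% to under 2% it was 2100 CPM in 32 cells and 2467 CPM in 40 cells. Among cells with under 0.05% sarcomeric RNA, an alternative chosen after seeing the data, the log2 ratio of Acta2 for 5-Aza in H3WT was 0.40, within the 1.5-fold ratio, while those of Tagln and Myl9 were 2.89 and 1.90. For 5-Aza in H3R26C that of Acta2 was −0.035 there.

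Adipocyte-like cells, with at least 3 of 8 adipocyte markers, had the lowest Acta2 of the states in every library, 62.5 to 131 CPM. Their Tpm1 was 377 to 596 CPM, the lowest of the states except in H3R26C 5-Aza, where cycling cells were lower. Cycling cells, by contrast, had more Acta2 than the remaining cells in 3 libraries, 419 against 222 CPM in H3WT DMSO, 539 against 356 in H3WT 5-Aza and 637 against 275 in H3R26C DMSO. In H3R26C 5-Aza it was 349 against 360 CPM, in the reverse order. Median depths of cycling cells were 34539.5 UMIs in H3WT DMSO, 18993 in H3WT 5-Aza, 27551 in H3R26C DMSO and 19122 in H3R26C 5-Aza. Those of the remaining cells were 22188, 12911, 16239.5 and 12412 UMIs, and the part of depth in these levels was not tested. Tpm1 was lower in cycling cells in all 4 libraries, 676 against 1198, 843 against 1327, 630 against 1296 and 518 against 847 CPM. Smtn was higher in cycling cells in all 4, 60.8 against 38.4, 64.3 against 37.6, 50.3 against 31.5 and 55.0 against 47.6 CPM. The higher Smtn and lower Tpm1 in H3R26C 5-Aza, the library with the most cycling cells, were present outside the cycling cells too, where the log2 ratios for 5-Aza in H3R26C were 0.58 for Smtn and −0.61 for Tpm1.

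**Figure D5:**
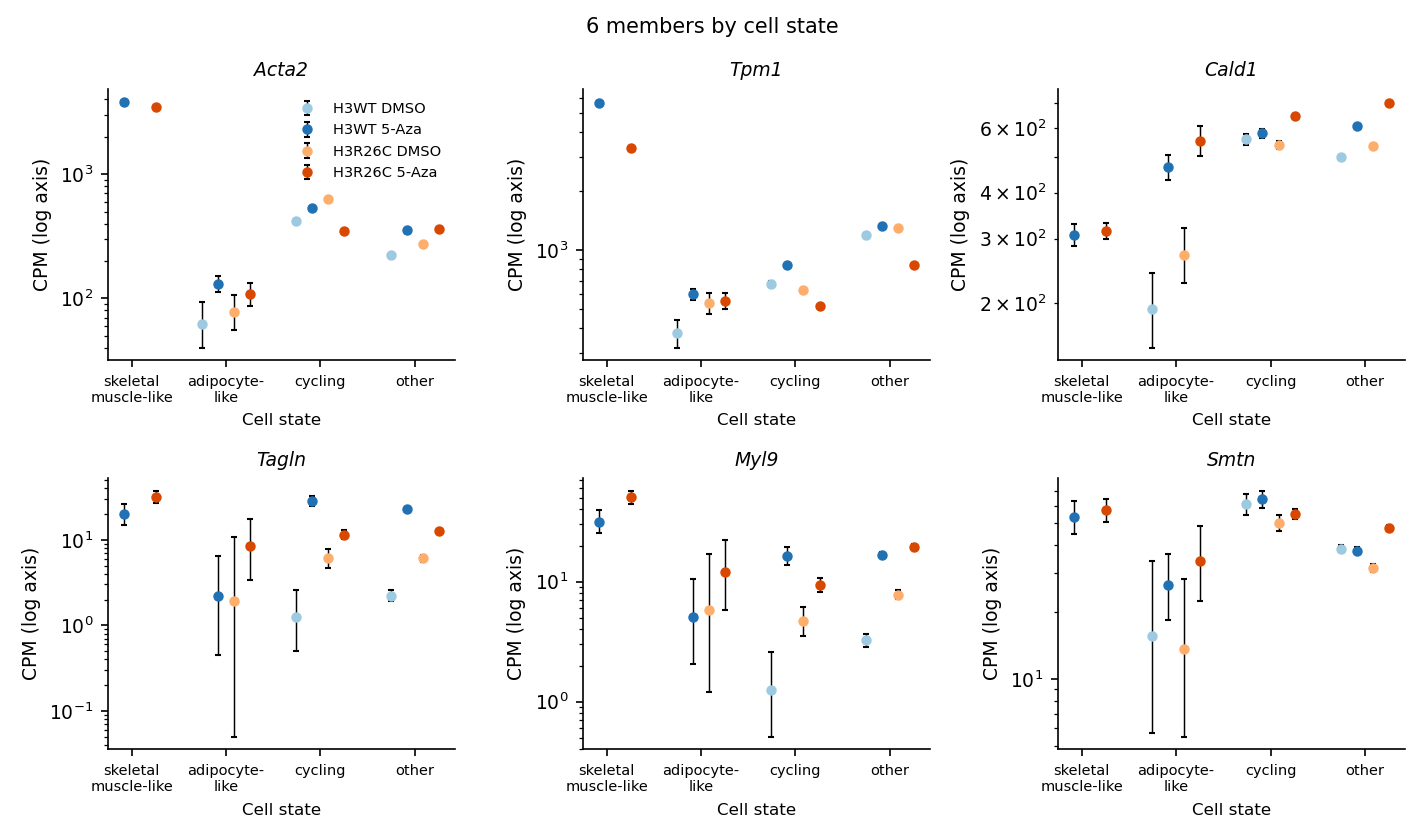
The level in CPM on a log axis is plotted for 6 members in skeletal muscle-like, adipocyte-like, cycling and other cells of the 4 libraries, with 95% exact Poisson intervals as bars; values of 0 are not drawn. Acta2 and Tpm1 are highest in skeletal muscle-like cells, at 3788 and 5668 CPM in H3WT 5-Aza, and Cald1 is not.

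Regulators of the contractile program were compared in the same way. Myocd, the cardiac and smooth muscle co-activator of SRF, had 20, 13, 16 and 1 UMIs, or 0.230 CPM in H3WT DMSO, 0.159 in H3WT 5-Aza, 0.190 in H3R26C DMSO and 0.00943 in H3R26C 5-Aza. Srf (12.9 to 19.4 CPM), its other co-activators Mrtfa (23.2 to 33.8 CPM) and Mrtfb (20.6 to 31.0 CPM) and Tead1 (84.4 to 100 CPM) were all measured. Of the 18 genes on this list 17 were counted, and 3 were higher and 1 lower with 5-Aza in H3WT, 3 and 4 in H3R26C, 2 and 1 in H3R26C against H3WT with DMSO, and 3 and 4 with 5-Aza. The medians were −0.097, −0.23, −0.065 and −0.31, beside all-gene medians of 0.035, −0.051, 0.041 and −0.037. Over all genes 5.77% were higher and 1.62% lower in the first comparison, 8.91% and 10.1% in the second, 4.91% and 1.67% in the third and 7.36% and 8.31% in the last, and the lists that follow are given in the same order of comparisons.

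Ligands of TGF-beta lay on both sides with 5-Aza. Tgfb1 was higher with 5-Aza, 22.9 against 12.2 CPM in H3WT and 36.6 against 15.1 CPM in H3R26C. Tgfb2 was lower with 5-Aza in H3R26C, 38.7 against 83.1 CPM, and was 100 against 134 CPM in H3WT. The receptor gene Tgfbr1 was at 50.9 CPM in H3WT DMSO, 43.8 in H3WT 5-Aza, 38.7 in H3R26C DMSO and 22.2 in H3R26C 5-Aza. Tgfbr2, the other receptor gene listed, was at 261, 323, 246 and 207 CPM in that order. Both receptor genes were lower in H3R26C than in H3WT with either treatment. Smad3 was at 39.0, 33.0, 37.3 and 21.4 CPM in that order. Fhl2, a LIM-domain partner of SRF, was at 30.04, 52.5, 49.3 and 103 CPM, and Csrp2, another LIM-domain protein of smooth muscle, at 339, 559, 658 and 886 CPM in the order H3WT DMSO, H3WT 5-Aza, H3R26C DMSO and H3R26C 5-Aza. Both were lowest in H3WT DMSO and highest in H3R26C 5-Aza, an order that differs from that of Tagln.

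Many of the other actomyosin and tropomyosin genes serve the cytoskeleton of most cells. Of 20 genes 19 were counted, and the higher and lower ones were 2 and 0 with 5-Aza in H3WT, 2 and 2 in H3R26C, 2 and 0 between the lines with DMSO and 2 and 2 with 5-Aza, with medians of 0.11, 0.022, 0.074 and 0.037. In each comparison most of them lay within 1.5-fold, as did most of all genes. The all-gene shares were 5.77% higher and 1.62% lower, 8.91% and 10.1%, 4.91% and 1.67%, and 7.36% and 8.31%. Tpm2, the beta-tropomyosin, passed 1.5-fold in each of the 4 comparisons, just so between the lines with DMSO (0.60), at 80.9 CPM in H3WT DMSO, 140 in H3WT 5-Aza, 123 in H3R26C DMSO and 249 in H3R26C 5-Aza. In H3R26C 5-Aza, where Tpm1 was lowest, Tpm2 was therefore highest. The part of muscle RNA outside the skeletal muscle-like cells in the Tpm2 levels was not tested. Myh10, a non-muscle myosin heavy chain, was at 192, 152, 185 and 69.7 CPM, and Flna, the actin cross-linker filamin A, at 469, 353, 435 and 236 CPM in the same order, both lowest in H3R26C 5-Aza.

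Among 16 stress fibre and focal adhesion genes 15 were counted, with 0 higher and 1 lower with 5-Aza in H3WT, 1 and 2 in H3R26C, 1 and 0 between the lines with DMSO and 2 and 1 with 5-Aza, with medians of 0.0083, 0.048, 0.0075 and −0.033. The all-gene shares were 5.77% and 1.62%, 8.91% and 10.1%, 4.91% and 1.67%, and 7.36% and 8.31% in the same order. With 15 genes counted, such small numbers are not read as a difference from those shares. Palld, the actin scaffold palladin, was lower with 5-Aza in both lines, 276 against 477 CPM in H3WT and 190 against 400 CPM in H3R26C. Vcl, vinculin, was lower with 5-Aza in H3R26C, 227 against 406 CPM. Zyx, the focal adhesion protein zyxin, was at 340 CPM in H3R26C 5-Aza and 615 CPM in H3WT 5-Aza. The higher ones were Fblim1 and Parvb, focal adhesion genes with a mean under 20 CPM that were named after their values had been seen. Fblim1 was at 4.50 CPM in H3WT DMSO, 5.59 in H3WT 5-Aza, 14.2 in H3R26C DMSO and 16.5 in H3R26C 5-Aza, higher in H3R26C with either treatment. Parvb was at 14.1, 14.0, 18.5 and 31.7 CPM, highest in H3R26C 5-Aza.

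Of 13 other smooth muscle genes 9 were counted, with 2 higher and 0 lower with 5-Aza in H3WT, 3 and 3 in H3R26C, 0 and 1 between the lines with DMSO and 0 and 3 with 5-Aza, with medians of 0.10, 0.095, −0.037 and −0.41. Over all genes 5.77% were higher and 1.62% lower in the first comparison, 8.91% and 10.1% in the second, 4.91% and 1.67% in the third and 7.36% and 8.31% in the last. Des, the muscle intermediate filament desmin, was at 0.645 CPM in H3WT DMSO, 9.63 in H3WT 5-Aza, 0.607 in H3R26C DMSO and 14.1 in H3R26C 5-Aza, and skeletal muscle also makes it. Kcnmb1 and Pln, a channel subunit and a calcium pump regulator of smooth muscle, were at most 0.0612 CPM. Npnt was at 13.7, 28.6, 18.9 and 38.5 CPM in the same order, and Itga8, not counted, at 0.944, 3.64, 1.78 and 7.33 CPM. Both were higher with 5-Aza in both lines. Synm, at 30.6, 21.1, 34.6 and 12.9 CPM, and Mustn1, at 59.3, 52.6, 57.8 and 26.2 CPM, were lower with 5-Aza in both. Smoc2, a matrix protein, was at 598, 539, 550 and 124 CPM, lowest in H3R26C 5-Aza. Of 9 pericyte markers, Kcnj8, Abcc9 and Higd1b were at most 0.131 CPM, and Mcam was at 0.978 to 1.27 CPM. Rgs5 was at 0.437, 1.90, 0.761 and 1.32 CPM and Vtn at 0.207, 1.38, 0.369 and 2.10 CPM in the same order. Both were low and higher with 5-Aza in both lines. Cspg4, Notch3 and Pdgfrb were counted, which other mesenchymal cells also make. Notch3 was at 9.35, 19.2, 26.6 and 40.4 CPM, Pdgfrb at 193, 169, 178 and 108 CPM and Cspg4 at 40.9 to 46.7 CPM.

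TGF-beta targets and myofibroblast matrix genes, 11 in all, were 2 higher and 0 lower with 5-Aza in H3WT, 1 and 3 in H3R26C, 1 and 3 between the lines with DMSO and 1 and 6 with 5-Aza, with medians of −0.084, −0.25, −0.18 and −0.63. The all-gene shares were 5.77% and 1.62% in the first comparison, 8.91% and 10.1% in the second, 4.91% and 1.67% in the third and 7.36% and 8.31% in the last. Ccn2, connective tissue growth factor, was at 65.6, 127, 35.9 and 34.6 CPM in the order H3WT DMSO, H3WT 5-Aza, H3R26C DMSO and H3R26C 5-Aza, and was thus higher with 5-Aza in H3WT and lower in H3R26C than in H3WT with either treatment. Tgfbi, a TGF-beta-induced matrix protein, was at 29.1, 58.6, 87.7 and 211 CPM, the reverse order between the lines. Members of this list therefore did not move one way.

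Genes were ranked over cells by r with the summed members. This r was averaged over the 4 libraries, among 2742 genes with at least 50 CPM in each. Acta2, Cald1 and Tpm1 held 95.3% to 97.1% of the summed members, so that the ranking, like the sum, follows mainly these genes. The 10 highest were Cnn2 (0.295), Ogn (0.288), Actb (0.282), Myl12a (0.268), Cxcl12 (0.265), Lox (0.253), Myl6 (0.241), Marcks (0.232), Prss23 (0.232) and Ccn5 (0.220). Cnn2, Actb, Myl12a and Myl6 encode a calponin, an actin and myosin light chains of the general cytoskeleton, and Ogn and Lox act in the collagen matrix. At the other end stood Ly6c1 (−0.134), Dbi (−0.128) and mt-Nd2 (−0.128). These means do not hold alike in each library. In H3R26C 5-Aza, Ly6c1 was at −0.079, Dbi at 0.033 and mt-Nd2 at −0.0081, each higher than in the other libraries. The 6 ranked genes of the TGF-beta target list had a median of 0.175 and the 19 ranked actomyosin genes 0.099, beside a median near 0 over all ranked genes.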

How the data were processed

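The authors counted UMIs with Cell Ranger (6.1.0 per the file headers) on GRCm38 and deposited filtered matrices of whole-number counts per gene and barcode, without normalization. Their cell filter (5000 UMIs, 1500 genes, 20% mitochondrial UMIs) was applied here. Counts were summed over the cells of a library outside the skeletal muscle-like ones and given as CPM, with 95% exact Poisson or binomial intervals. Log2 ratios used a pseudocount of 1 CPM, and the 10124 genes whose mean over the 4 libraries reached 5 CPM were set against a ratio of 1.5. No test was made, since each condition has 1 library. Cycling cells had at least 3 UMIs over 10 cycling genes after thinning to 5000 UMIs (seed 1). All 10 members are named, and of each other list up to 3 genes per comparison by the size of the ratio among those with at least 20 CPM, with further genes named for their role. The members and lists were chosen with earlier results of these data known. Alternatives changed the pseudocount, scaling, cell filter, sarcomeric limit, cycling cells, expression minimum, ratio, thinning and cutoff. Positions came from GENCODE M21, matched for 99.6% of genes, and promoters from RefSeq. Proteins were not analysed here. The ratio, thinning and correlation steps were tested on simulated data. Python 3.11.15, numpy 2.4.6, scipy 1.17.1, pandas 2.3.3 and matplotlib 3.10.9 were used.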

Additional observations from a re-analysis of the deposited data

Results flagged for a closer look

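Tpm1 and the summed members differed between the lines in the direction of their 5-Aza to DMSO log2 ratio. For Tpm1 the ratio was 0.13 in H3WT and −0.65 in H3R26C, and for the sum of the 10 members it was 0.26 in H3WT and −0.16 in H3R26C. Each line has 1 library per treatment, so the difference between the lines was not tested. With the skeletal muscle-like cells kept, the sum in H3R26C was 0.0041 and no longer below 0. Tpm1 made up 59.3% of the summed members in H3WT DMSO and 40.4% in H3R26C 5-Aza, and the other 7 members without Acta2, Cald1 and Tpm1 had log2 ratios of 0.71 in H3WT and 0.54 in H3R26C, both above 0.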

How the results depend on the processing

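No paired analysis was possible because a condition is 1 library here. The members' sum in the 4 comparisons (5-Aza against DMSO in H3WT, then in H3R26C, then H3R26C against H3WT with DMSO, then with 5-Aza; main log2 ratios 0.26, −0.16, 0.12 and −0.30) was 0.19, −0.14, 0.054 and −0.28 with median-of-ratios size factors, 0.29, −0.15, 0.14 and −0.29 as a mean over cells, and 0.48, −0.097, 0.36 and −0.22 in cells of 10000 to 20000 UMIs. Without leaving out skeletal muscle-like cells it was 0.40, 0.0041 and, in the last comparison, −0.27. Without cycling cells it was −0.11, 0.13 and −0.24 in the last 3, and under 0.05% sarcomeric RNA 0.15, −0.22 and, in the last, −0.25. Under 0.5% sarcomeric RNA gave 0.24 in the first and the stricter cell filter −0.15 in the second. Members past the ratio in H3R26C with 5-Aza were 3 higher in place of 2 (Acta2 added) and 1 lower in place of 2 (Tpm1 lost) with skeletal muscle-like cells kept, 3 higher (Smtn added) as a mean over cells or at 10000 to 20000 UMIs, and 1 higher and 0 lower at a ratio of 2. In H3WT with 5-Aza they were 2 higher in place of 3 (Acta2 lost) under 0.05% sarcomeric RNA and at a ratio of 2, and between the lines with DMSO 3 higher in place of 2 (Acta2 added) at 10000 to 20000 UMIs. With no minimum level, Actg2 was added to the higher ones in both 5-Aza comparisons and to the lower ones between the lines with 5-Aza. For H3R26C against H3WT with 5-Aza they were 1 lower at 10000 to 20000 UMIs and 0 lower at a ratio of 2. The mean r of the Acta2, Cald1 and Tpm1 pairs, thinned to 10000 UMIs, was 0.172, 0.161 and 0.149 in the libraries H3WT DMSO, H3WT 5-Aza and H3R26C 5-Aza. The share of cells above the cutoff in H3WT 5-Aza and H3R26C 5-Aza was 18.2% and 11.6% at that depth, and in H3R26C 5-Aza it was 11.8% without cycling cells. At the 95th percentile it was 9.95%, 5.86% and 6.24% in H3WT 5-Aza, H3R26C DMSO and H3R26C 5-Aza. The sum in H3R26C turned above 0 with skeletal muscle-like cells kept, and no member past the ratio turned its direction. The cause of these changes was not tested, apart from those that follow from fewer cells or a stricter ratio. The alternatives by depth class, by 0.05% sarcomeric RNA and without adipocyte-like cells were chosen after seeing the data. Depth limits Myh11 and Cnn1, with at most 46 UMIs per library.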
